A study of Mus musculus with 24 samples.

Results

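The data described here are the protein-protected sites on transcripts of Slc25a37, the mouse gene for mitoferrin 1 (ENSMUSG00000034248.7), in differentiating erythroleukemia cells. A protein-protected site (PPS) is a stretch of RNA that a nuclease cut less while bound proteins were still present than after they had been digested away. Members were taken by position: every PPS that shared at least 1 nt, on the same strand, with the gene body on the minus strand of mouse chromosome 14 (GRCm38, mm10), 69241848 to 69285112, a span of 43265 nt. This gave 211 PPSs of 460777 in all. The day 0 list gave 23 of its 138689 PPSs, the day 2 list 78 of 169575 and the day 4 list 110 of 152513. Slc25a37 was selected on the exonic coverage by PPSs in these same lists, which was higher at day 4 than at day 0, so every difference between days is given as a description with no test.

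Mitoferrin 1 is a carrier of the inner mitochondrial membrane that brings iron into the mitochondrion. In developing red cells this iron is put into protoporphyrin to make haem, and the rest is used for iron-sulfur clusters. Slc25a37 is strongly expressed in erythroid cells, whereas its paralog Slc25a28, mitoferrin 2, is expressed in many tissues. Proteins bound to the exons and untranslated regions of an mRNA act in its translation, stability and localization, and proteins on introns act mostly in splicing and processing of the precursor RNA.

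The cells were MEL cells, a mouse line of red cell precursors transformed by Friend virus, which start to mature when grown in DMSO. They were profiled by protein interaction profile sequencing (PIP-seq) before induction (day 0) and after 2 and 4 days in 2% DMSO (day 2 and day 4), and all cells were crosslinked with formaldehyde. Each day had 8 libraries: digestion with a nuclease for single-stranded RNA (ssRNase, RNaseONE at 100 U/ml) or for double-stranded RNA (dsRNase, RNase V1 at 2.5 U/ml), before proteins were removed (footprint) or after (structure only), in 2 replicates, so that the 24 libraries formed 12 groups of 2. The PPSs of a day were merged over its nucleases and replicates, and each PPS lists the calls that went into it, so that a day holds 4 call sets (2 nucleases by 2 replicates) with shared coordinates. The lists give no read counts, and the depth behind a PPS is unknown. All cells come from 1 transformed line, and fewer cells of a maturation stage and less RNA per cell cannot be told apart. Levels of Slc25a37 RNA were not analysed here, so that more RNA of the gene and more protection of the same RNA cannot be told apart either. Among marker genes, 7 of 7 erythroid genes carried PPSs, with a median exonic coverage of 18.6%, 19.2% and 39.2% at day 0, day 2 and day 4. None of the T cell, B cell, myeloid and hepatocyte markers had any. Of the megakaryocyte markers, Pf4 and Itga2b had PPSs and Gp9 had none. Pf4 was covered to 31.2%, 6.93% and 11.5% on the 3 days, and Itga2b to 37.9%, 37.1% and 44.2%. At day 0 both were above the erythroid median. Among the erythroid genes, Slc4a1 had no coverage at day 0 or day 2.

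The longest coding transcript of Slc25a37 has 4 exons and a spliced length of 4174 nt. Its coding sequence (CDS) of 1014 nt is preceded by a 5′UTR of 171 nt and followed by a 3′UTR of 2989 nt, counted from the stop codon, all of which lies in exon 4. Intron 1 has 35109 nt and makes up 81.1% of the gene body, while intron 2 has 1756 nt and intron 3 has 2226 nt. Regions below refer to this transcript. The annotation also lists a short coding transcript, a transcript of the nonsense-mediated decay class and a transcript that retains intron 2. Sequences were read from the RefSeq copy of the GRCm38 genome, and the spliced transcript built from it was identical to the annotated one. The following stretches, 5′ to 3′ on the minus strand, mark the ends of the coding sequence, with the start or stop codon in capitals, because PPSs reached no further upstream than the first and covered the second on all 3 days.
Start codon, chr14:69284927-69284953: gcggggccgcggATGgagctccgccgt
Stop codon, chr14:69244822-69244848: cgaactctgtacTAAaggaatggggca

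The splice sites of introns 2 and 3 are shown because PPSs crossed 3 of these 4 junctions. Capitals are exon bases.
5′ splice site of intron 2, chr14:69249379-69249408: GCCATCTAGCTAATGgtattttgaaagcgt
3′ splice site of intron 2, chr14:69247623-69247652: gagtttgttttgcagGGGTAGCTGGGAGTA
5′ splice site of intron 3, chr14:69247566-69247595: TGAATCCAGCAGAAGgtaatgttccgtggc
3′ splice site of intron 3, chr14:69245340-69245369: tcccccacctgacagTGGTGAAACAGCGCT

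Slc25a37 gained sites from day to day, also relative to the size of the lists. Of every 10000 PPSs in a list, it held 1.66 on day 0, 4.60 on day 2 and 7.21 on day 4. The calls behind them numbered 12 and 13 with ssRNase and 6 and 4 with dsRNase at day 0 (replicates 1 and 2). At day 2 they were 50 and 54 with ssRNase and 19 and 11 with dsRNase. At day 4 they were 61 and 64 with ssRNase and 63 and 53 with dsRNase. In each nuclease, no replicate of an earlier day reached a replicate of a later day. Both nucleases gave similar numbers of calls at day 4 alone, but the call sets also differ in size over the lists. Of every 10000 calls of a call set, the gene held 1.88 and 2.24 (ssRNase) and 1.73 and 0.969 (dsRNase) at day 0. At day 2 it held 6.62 and 5.93 beside 4.60 and 5.26, and at day 4 11.1 and 11.8 beside 9.18 and 10.2. By this measure ssRNase was above dsRNase on all 3 days. The PPSs covered 3.70% of the gene body on day 0, 12.3% on day 2 and 24.2% on day 4.

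The sites also differed in length, score and composition. Their median length was 60 nt before induction, 59 nt at day 2 and 72 nt at day 4, beside 58, 50 and 56 nt over the complete lists. The longest site of day 0 had 191 nt and lay in the CDS of exon 4, and the longest of day 4 had 353 nt and lay in the 3′UTR. The score deposited with each PPS had a median of 8.35, 9.98 and 10.39 over the sites of Slc25a37 and 6.82, 8.14 and 6.82 over the lists. Sites merged from more calls mostly had higher scores, so the score is not separate from the number of calls. PPSs of a single call made up 69.6% of the sites on day 0, 56.4% on day 2 and 52.7% on day 4 (69.5%, 73.4% and 65.6% of the lists). Calls of both replicates stood behind 30.4%, 38.5% and 46.4% of the sites (26.2%, 23.2% and 29.5% of the lists). Sites of ssRNase calls alone were 15 of 23 at day 0, 53 of 78 at day 2 and 38 of 110 at day 4. Those of dsRNase calls alone were 4, 6 and 36. The shares of such sites over the lists were not computed. No PPS lay on the opposite strand of the gene body on any day, although 3 genes are annotated there.

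**Figure D1:**
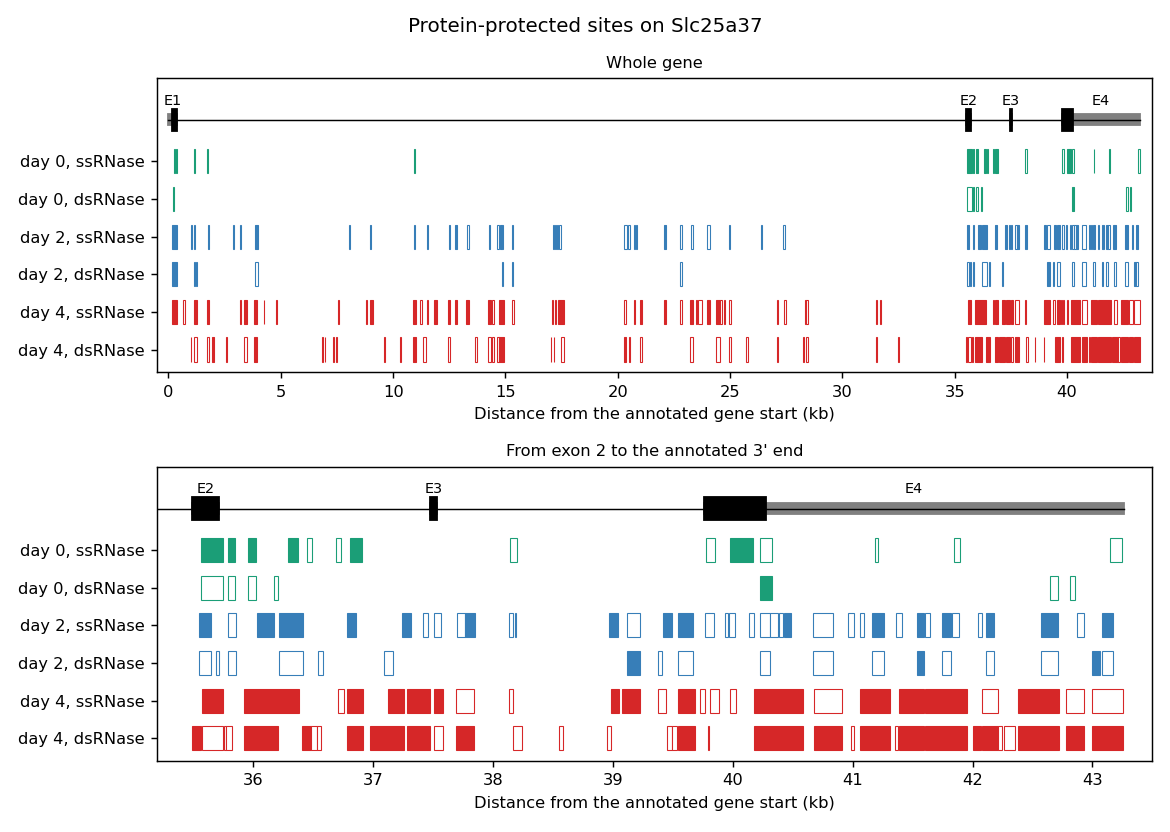
Map of the PPSs on Slc25a37 by day (colours) and nuclease (rows), against the distance from the annotated gene start in kb, for the complete gene (top) and from exon 2 to the 3′ end (bottom). Black boxes are coding exons and grey boxes untranslated exon parts (E1 to E4), filled PPSs have calls of both replicates of that nuclease and open ones of a single replicate. The 8 PPSs of day 0 that overlap intron 2 lie close together and the other 15 are spread over the gene, and those of day 4 fill much of exon 4 and intron 2 and are scattered along intron 1.

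Coverage, the share of nucleotides inside a PPS, was computed without PPSs of 20 to 40 nt, which have the size of ribosome footprints and numbered 4, 11 and 15 on Slc25a37. The spliced mRNA was covered to 20.9% before induction, to 41.2% at day 2 and to 74.2% at day 4. The replicates stood at 16.3% and 15.1% at day 0, 35.5% and 34.9% at day 2, and 73.9% and 68.7% at day 4. Day 4 exceeded day 0 by 52.4 to 58.9 percentage points over the 4 pairs of replicates. Over the exons of all transcripts, day 4 exceeded day 0 by 53.3 percentage points and did so in all 4 pairs, as did 30.8% of 9550 genes with an exonic PPS. Day 2 exceeded day 0 by 20.2 percentage points in all 4 pairs as well, as did 22.3% of these genes, and day 4 exceeded day 2 in all 4 pairs, as did 33.8%. Since replicates share merged coordinates, the spread between them is understated. Each nuclease and replicate was credited with the full length of every merged PPS that held one of its calls. Coverage by nuclease or replicate is therefore an upper limit of what its own calls cover.

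By call set, spliced-mRNA coverage was highest with dsRNase at day 4, at 65.3% and 60.3% in the replicates (62.8% ± 3.49, SD, n = 2). It was 53.0% and 61.9% with ssRNase at day 4 (57.5% ± 6.27, SD, n = 2), and these 2 groups overlapped. Next came ssRNase at day 2 with 28.01% and 32.9% (30.5% ± 3.49, SD, n = 2) and dsRNase at day 2 with 20.3% and 15.7% (18.0% ± 3.25, SD, n = 2). The lowest levels were those of day 0, with 11.5% and 15.1% for ssRNase (13.3% ± 2.54, SD, n = 2) and 8.51% and 2.30% for dsRNase (5.402% ± 4.39, SD, n = 2). All other neighbours in this order did not overlap. At day 0 and day 2 the level was thus higher with ssRNase than with dsRNase, and at day 4 no such order was seen. Since the call sets differ in size over the lists, this is not shown to be particular to Slc25a37.

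**Figure D2:**
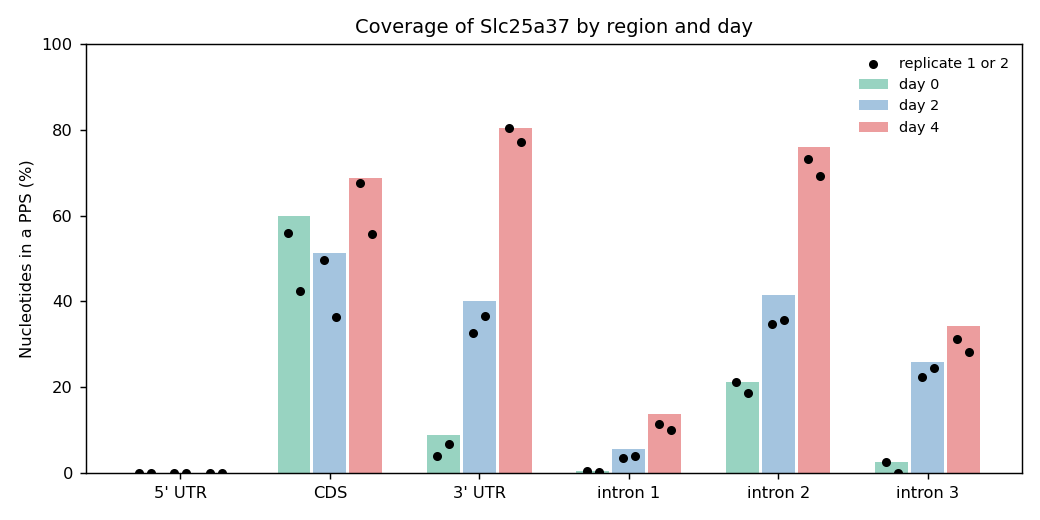
Share of nucleotides in a PPS (in %) for 6 regions of Slc25a37 by day. Bars show the PPSs of all call sets and points the calls of replicate 1 (left) and replicate 2 (right). The 3′UTR goes from 8.87% at day 0 to 80.3% at day 4 and intron 2 from 21.1% to 75.9%, whereas the replicates of the CDS overlap between day 0 and day 4 and the 5′UTR stays at 0.

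The 3′UTR accounted for most of the difference between days on the mRNA. PPSs covered 8.87% of it before induction, 40.1% on day 2 and 80.3% on day 4. The replicates stood at 3.88% and 6.69% at day 0, at 32.7% and 36.5% at day 2, and at 80.3% and 77.1% at day 4. Every pair was higher at the later day, with day 4 above day 0 by 70.4 to 76.4 percentage points. Both nucleases showed this order. With ssRNase the replicates were at 0% and 6.69% on day 0, at 23.8% and 34.3% at day 2, and at 53.5% and 70.3% at day 4. With dsRNase they were at 3.88% and 1.71%, then at 16.6% and 14.6%, and finally at 80.3% and 77.1%. At day 4 the 3 equal parts of the 3′UTR, from the stop codon on, were covered to 75.5%, 81.6% and 83.8%.

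The number of sites did not follow the coverage. In the 3′UTR day 0 had 6 PPSs of 9 calls, day 2 had 19 of 37 calls and day 4 had 15 of 60 calls. The PPSs of day 4 were thus fewer but larger than those of day 2. None of the 15 rested on ssRNase calls alone, 5 rested on dsRNase calls alone and 10 on both, and 11 had calls of both replicates. At day 2, by contrast, 10 of 19 were of ssRNase calls alone. The highest score of all 211 sites, 104.65, belonged to a PPS of 339 nt at day 4 (chr14:69242394-69242732) made of 11 calls from all 4 call sets. The same stretch held a single PPS of 65 nt at day 0 (score 5.4, 1 call) and a PPS of 141 nt at day 2 (score 34.94, 4 calls). The longest site, of 353 nt (chr14:69243159-69243511, score 70.49, 7 calls), came from all 4 call sets at day 4 too.

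The stop codon lay in a PPS with calls of both replicates on all 3 days. At day 0 a PPS of 96 nt with calls of both replicates and both nucleases covered it (chr14:69244786-69244881, score 24.93). At day 2 the PPS had 83 nt (score 20.61, 2 calls) and at day 4 218 nt (chr14:69244722-69244939, score 59.41, 6 calls from all 4 call sets). The 81 nt common to the 3 days (chr14:69244801-69244881) include all 27 bases of the stretch printed for the stop codon.

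The 3′UTR has 3 copies of the polyadenylation signal AATAAA, at nt 574, 646 and 2969 from the first base of the stop codon. They are shown, with the signal in capitals, because PPSs covered some of them and not others. The transcript of the nonsense-mediated decay class ends at 69244176, within the second stretch. The last 21 nt of the main transcript begin with the third signal.
AATAAA at nt 574, chr14:69244247-69244274: ggcaccaaagtAATAAAtggctttatgt
AATAAA at nt 646, chr14:69244175-69244202: gaatgtaaaatAATAAAtataaagttta
AATAAA at nt 2969, chr14:69241852-69241879: gagctggaaaaAATAAAgcattgatctt

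The first signal lay inside a PPS at day 4 (chr14:69244205-69244434, score 54.22, 4 calls) and in none at day 0 or day 2. The second lay in no PPS on any day and fell in a gap of 75 nt at day 4 (chr14:69244130-69244204). The third lay in a PPS at day 4 and in none before, while a PPS of day 0 (chr14:69241869-69241964, score 9.55, 1 ssRNase call) ended directly upstream of it. As background for these letters, 0.895% of 15640 windows of 28 nt, taken from the middle of the PPSs on chromosome 14, held AATAAA on the RNA strand. The 3′UTR also holds 1 copy of TATTTAT, the core of AU-rich elements that destabilize mRNAs, shown here in capitals; 0.224% of the windows held it.
TATTTAT at nt 2751, chr14:69242069-69242096: tatttaacttTATTTATggataattatg

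This copy lay in PPSs at day 2 (chr14:69242048-69242113, score 23.21, 2 dsRNase calls, both replicates) and at day 4, and in none at day 0. Of the 3′UTR, 206 nt lay in a PPS on all 3 days and 456 nt (15.3%) on none. The longest gap at day 4 had 89 nt, from nt 314 to nt 402 of the 3′UTR. Soft-masked repeat sequence made up 41.5% of the 3′UTR outside PPSs at day 4 and 11.9% inside, and its GC content was 37.5% outside and 45.7% inside. The part of repeats and base composition in these gaps was not tested.

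**Figure D3:**
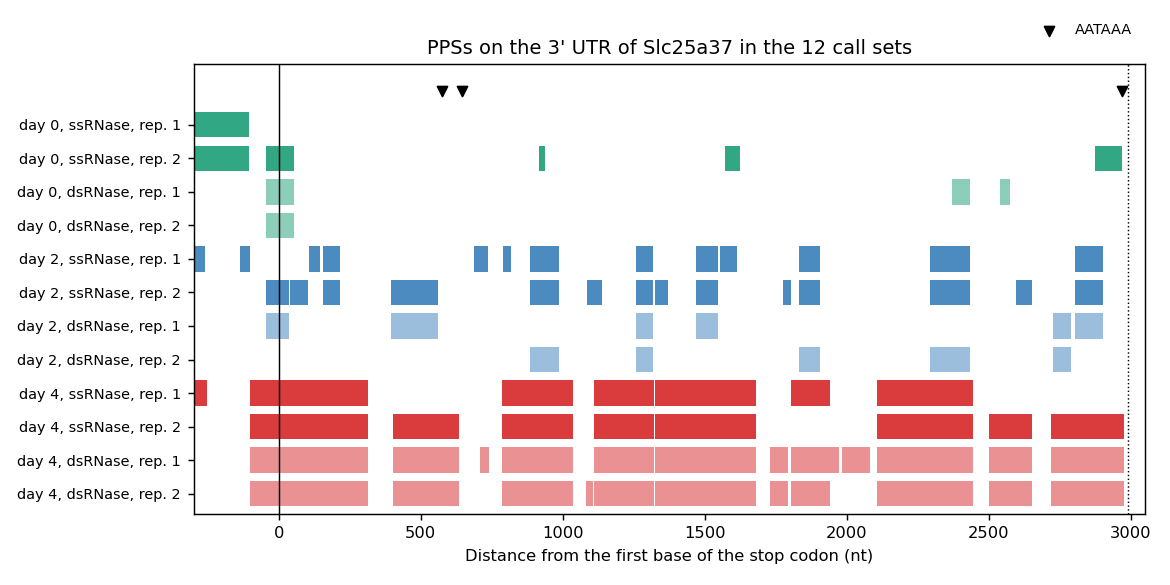
PPSs on the end of the CDS and the 3′UTR of Slc25a37 in the 12 call sets (rows), against the distance in nt from the first base of the stop codon (solid line), with the annotated end dotted and AATAAA signals as triangles. Colours are days, darker bars are ssRNase and lighter bars dsRNase. A merged PPS is drawn at full length in every row that has a call in it. At day 4 the 4 call sets share most of their blocks, and the second signal lies in a gap of every row. At day 0 the site on the stop codon and a site in the coding part of exon 4 recur.

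The CDS, in contrast, was already covered to 59.9% at day 0, compared with 51.4% at day 2 and 68.8% at day 4. Its replicates were at 55.8% and 42.3% at day 0, at 49.7% and 36.3% at day 2, and at 67.6% and 55.7% at day 4, and those of day 0 and day 4 overlapped. Day 4 was above day 0 in 3 of 4 pairs, with differences of -0.0986 to 25.2 percentage points. Over the coding exons of all transcripts the difference was 10.97 percentage points. It turned to -1.73 without replicate 1 of day 4, came to 25.7 without replicate 1 of day 0, and was 2.48 with ssRNase calls alone. By nuclease, CDS coverage at day 4 was 60.7% with ssRNase and 35.9% with dsRNase, the reverse of the 3′UTR, where dsRNase gave 80.3% and ssRNase 74.9%.

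Exon 1, which holds the start codon, differed between the nucleases at day 4. At day 0 it had 3 separate PPSs of 1 call each, 42 nt from dsRNase and 41 and 60 nt from ssRNase. At day 2 a PPS of 202 nt with 7 calls from all 4 call sets covered 96.2% of its coding part (chr14:69284733-69284934, score 70.68), the highest score of that day. At day 4 nearly the same stretch, 201 nt, rested on 3 ssRNase calls of both replicates (chr14:69284740-69284940, score 27.65), and dsRNase gave no site in exon 1 in either replicate. The coverage of exon 1 with dsRNase was therefore 11.02% and 0% at day 0, 53.0% in both replicates at day 2 and 0% in both at day 4. The 53.0% is the length of the merged PPS, and the part of it that dsRNase calls cover is unknown. The 5′UTR had no PPS on any day in any call set. Its GC content was 69.6%, beside 68.7% inside the PPS of exon 1 at day 4.

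Exon 2 was covered to 66.4%, 52.0% and 96.1% on the 3 days. The 57 nt of exon 3 had no PPS at day 0 and were covered to 47.4% at day 2, by replicate 1 alone, and to 49.1% at day 4. The coding part of exon 4 went the other way, with 60.2% on day 0, 33.4% on day 2 and 48.1% on day 4. The low value of day 2 leaves out PPSs of 27 and 36 nt in this part, which fell under the length limit. Here a PPS of 191 nt with both replicates at day 0 (chr14:69244944-69245134, score 18.97) was met at the later days by short sites of few calls. The replicates of this part, at 60.2% and 45.6% on day 0 and at 45.6% and 22.4% on day 4, touched each other.

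Intron 2 stood high among introns of its size on all 3 days, and highest at day 4. PPSs took up 21.1% of it on day 0, 41.5% on day 2 and 75.9% on day 4, with replicates at 21.1% and 18.7%, at 34.8% and 35.5%, and at 73.2% and 69.2%. Day 4 exceeded day 0 by 48.1 to 54.6 percentage points over the 4 pairs. Among 10892 introns of 1000 to 3000 nt with some coverage on any day, whose median coverage was 1.42% at day 4, intron 2 ranked 319th on day 0, 31st on day 2 and 4th on day 4. The site with the highest score had 285 nt and 8 calls from all 4 call sets at day 4 (chr14:69248908-69249192, score 73.72). Another PPS of 196 nt ended at the last base of the intron, directly before exon 3 (chr14:69247638-69247833, score 46.51). Intron 2 is an exon part in the transcript that retains it, and PPSs cannot tell this transcript from a precursor that is still to be spliced. Exonic coverage over all transcripts therefore includes intron 2. Slc25a37 was selected on exonic coverage, so the differences and ranks of intron 2 are not independent of the selection.

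A PPS that crosses a junction holds bases of exon and intron, although neighbouring calls were merged, so that a crossing PPS need not be 1 footprint. At the 5′ splice site of intron 2 a PPS of day 0 had 152 nt in exon 2 and 29 nt in the intron (chr14:69249365-69249545, score 27.04), and a PPS of day 4 had 150 and 26 nt (chr14:69249368-69249543, score 40.48). Both had calls of both nucleases and both replicates, and at day 2 no PPS crossed this junction. The 5′ splice site of intron 3 was crossed at day 2 (score 14.22, 1 ssRNase call) and at day 4 (chr14:69247530-69247608, score 22.1, both replicates). The 3′ splice site of intron 3 was crossed by a single PPS of day 4 (score 5.4, 1 call). No PPS crossed the 3′ splice site of intron 2 or either end of intron 1.

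Intron 3 had 1 PPS before induction, 10 on day 2 and 13 on day 4. Its coverage was 2.61%, 25.9% and 34.3% on these days, with replicates at 2.61% and 0%, at 22.4% and 24.4%, and at 31.2% and 28.3%. Close to its 3′ end a PPS absent at day 0 had 125 nt and 4 calls at day 2 (chr14:69245444-69245568, score 51.56). At day 4 it had 145 nt and 7 calls from all 4 call sets (chr14:69245428-69245572, score 79.6), the second highest score on the gene. In the size class named above intron 3 ranked 4246th on day 0, 142nd on day 2 and 99th on day 4.

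The long intron 1 held more sites than any other region at day 2 and day 4, but spread thinly. Its PPSs numbered 3, 34 and 64 on the 3 days, or 0.0854, 0.968 and 1.82 per kb. In the 3′UTR these densities were 2.01, 6.36 and 5.02 per kb. Its coverage was 0.487%, 5.56% and 13.6%, with replicates at 0.347% and 0.140% at day 0, 3.38% and 4.02% at day 2, and 11.4% and 9.93% at day 4. With dsRNase it was 0%, 1.08% and 7.67%, and with ssRNase 0.487%, 5.38% and 11.6%. Calls of both replicates stood behind 0 of 3, 9 of 34 and 25 of 64 of its sites. The highest score, 45.7, belonged to a PPS of 236 nt at day 4 (chr14:69270159-69270394, 5 calls from all 4 call sets). Among 1062 first introns of 20000 nt or more with some coverage on any day, intron 1 ranked 469th, 54th and 13th. An annotated gene of unknown coding status, Gm20236, lies in intron 1 on the same strand and holds 0, 2 and 9 of these sites, which cannot be assigned to it or to Slc25a37. Soft-masked sequence made up 5.04% of intron 1 inside the PPSs of day 4 and 25.0% outside.

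Over positions that are intronic in every transcript, coverage was 0.615%, 6.75% and 14.9% on the 3 days, and day 4 exceeded day 0 in all 4 pairs, as did 27.1% of 7206 genes with an intronic PPS and 1000 intronic nt or more. The difference of 14.2 percentage points came to 8.72 with sites of both replicates, to 9.05 with scores of 10 or more and to 8.44 with dsRNase calls alone.

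Most positions protected early were protected later. All 23 PPSs of day 0 overlapped a PPS of day 4, with 84.5% of their nucleotides, and 18 of 23 overlapped a PPS of day 2. Of the 78 PPSs of day 2, 72 overlapped one of day 4. In the other direction, 23 of 110 PPSs of day 4 (20.9%) overlapped a PPS of day 0 and 67 of 110 (60.9%) one of day 2. Since day 4 covers more of the gene, shares of the earlier lists are larger by construction. Joined over the days, the PPSs formed 101 stretches, of which 16 were seen on all 3 days, 37 at day 2 and day 4, 41 at day 4 alone, 6 at day 2 alone and 1 at day 0 and day 4. Intron 1 held 36 of the 41 stretches of day 4 alone.

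In 4 places PPSs with calls of both replicates overlapped on all 3 days: in exon 2, at 2 places in intron 2 and at the stop codon. The middle 28 bases of the common stretch are printed for the first 3 of these, with GTGTG in capitals, to show what recurs on all days. The stop codon is printed above.
Exon 2, chr14:69249488-69249515: cctgaacgtgatgatgatgggtgcaggg
Intron 2, upstream place, chr14:69248764-69248791: tgtggacagcttttacataaggcaggag
Intron 2, downstream place, chr14:69248263-69248290: aattGTGTGTGTGtctatGTGTGcacta

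The place in exon 2 had scores of 27.04, 33.06 and 40.48 at day 0, day 2 and day 4. The upstream place in intron 2 had 16.79, 47.44 and 27.8, and the downstream place 17.3, 20.85 and 31.5. The downstream place in intron 2 was the single one of the 4 to hold GTGTG in the printed window, which 4.07% of the chromosome 14 windows did. In the 3′UTR, GTGTG occurred 22 times, counting overlapping copies, and 2, 9 and 11 of them lay in a PPS at day 0, day 2 and day 4. Of these 22, 11 belong to 1 repeat from nt 2467 on that lay in no PPS on any day.

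Against other genes, Slc25a37 ranked higher in its 3′UTR than in its CDS at day 2 and day 4, and lower at day 0. Among 6258 genes with a 3′UTR of 500 nt or more and a CDS of 300 nt or more, either of them with some coverage on any day, its 3′UTR ranked 1817th on day 0, 27th on day 2 and 5th on day 4, where the median was 4.24%. Its CDS ranked 72nd, 79th and 44th on these days, with a median of 11.1% at day 4. For the difference between day 4 and day 0 it ranked second in the 3′UTR and 1191st in the CDS, and the median gene was at 0 in both. Over all exons it ranked 9th of 9550 genes in this difference. Slc25a37 was selected on exonic coverage that was higher at day 4. Its ranks at day 4 and in this difference are therefore not independent of the selection. Synb, the nearest protein-coding gene upstream, 4231 nt before the 5′ end, had no PPS on any day.

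The paralog Slc25a28 did not share this pattern. Its exonic coverage stood at 33.7%, 35.7% and 29.5% on the 3 days, and day 4 was below day 0 in all 4 pairs with differences of -5.09 to -0.960 percentage points. Its 3′UTR, of 328 nt in the transcript with the longest CDS, was covered to 73.8% on day 0, 7.93% on day 2 and 9.45% on day 4, and its CDS to 39.1%, 48.3% and 41.2%. At day 0 the 3′UTR of mitoferrin 2 was mostly covered and that of mitoferrin 1 was not, and at day 4 the reverse was seen. At day 2 neither was mostly covered. The short 3′UTR of Slc25a28 was overlapped by only 2, 3 and 1 PPSs on these days, and no replicate values were computed for it. Of 47 annotated carriers of the Slc25 family, 35 had an exonic PPS. Slc25a37, which was selected on this measure, had the largest difference from day 0 to day 4 among them. Slc25a51, a mitochondrial NAD carrier, followed with 12.03 percentage points, and Slc25a33, a pyrimidine nucleotide carrier, was lowest with -18.3.

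Of the 8 enzymes of haem synthesis, 7 had a higher exonic coverage at day 4 than at day 0 in all 4 pairs and 1 a lower one, with a median difference of 14.5 percentage points. Over all 9550 genes 30.8% were higher and 25.4% lower in all pairs, with a median of 0. Ppox, which makes protoporphyrin, went from 20.4% to 49.0%. Fech, which inserts the iron, went from 4.16% to 20.8%. Cpox, the step before Ppox, was the exception, with 18.7% and 12.6%. Alas2, the erythroid enzyme of the first step, stood at 18.6% and 39.2%.

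Of 16 other genes of mitochondrial iron and iron-sulfur clusters, 13 had an exonic PPS, and 6 of these were higher and 3 lower in all 4 pairs (30.8% and 25.4% of all genes), with a median of 3.02 percentage points. Abcb10, an ATP-binding transporter of the inner membrane known to bind and stabilize mitoferrin 1, went from 9.01% to 20.7% and 40.9%. Its replicates were at 7.78% and 3.53% at day 0 and at 30.5% and 32.4% at day 4. Tmem14c, which serves the import of protoporphyrinogen, was at 34.9%, 9.74% and 64.2%. Of 14 genes of iron uptake, storage and regulation, 13 had an exonic PPS, 3 were higher and 1 lower in all pairs, smaller shares than the 30.8% and 25.4% of all genes, and the median was 0.756. Tfrc, the transferrin receptor, was at 33.8%, 22.8% and 53.9%. Hmox1, which degrades haem, had the lowest difference of the 3 lists, from 12.6% to no coverage, followed by Pcbp1, an iron chaperone and RNA-binding protein, with -6.45 percentage points (lower in 3 of 4 pairs), and Cpox with -6.16. Of the 34 genes of the 3 lists with an exonic PPS, Abcb10 had the largest difference with 31.8 percentage points, compared with 53.3 for Slc25a37. The genes share their libraries and lists with Slc25a37.

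**Figure D4:**
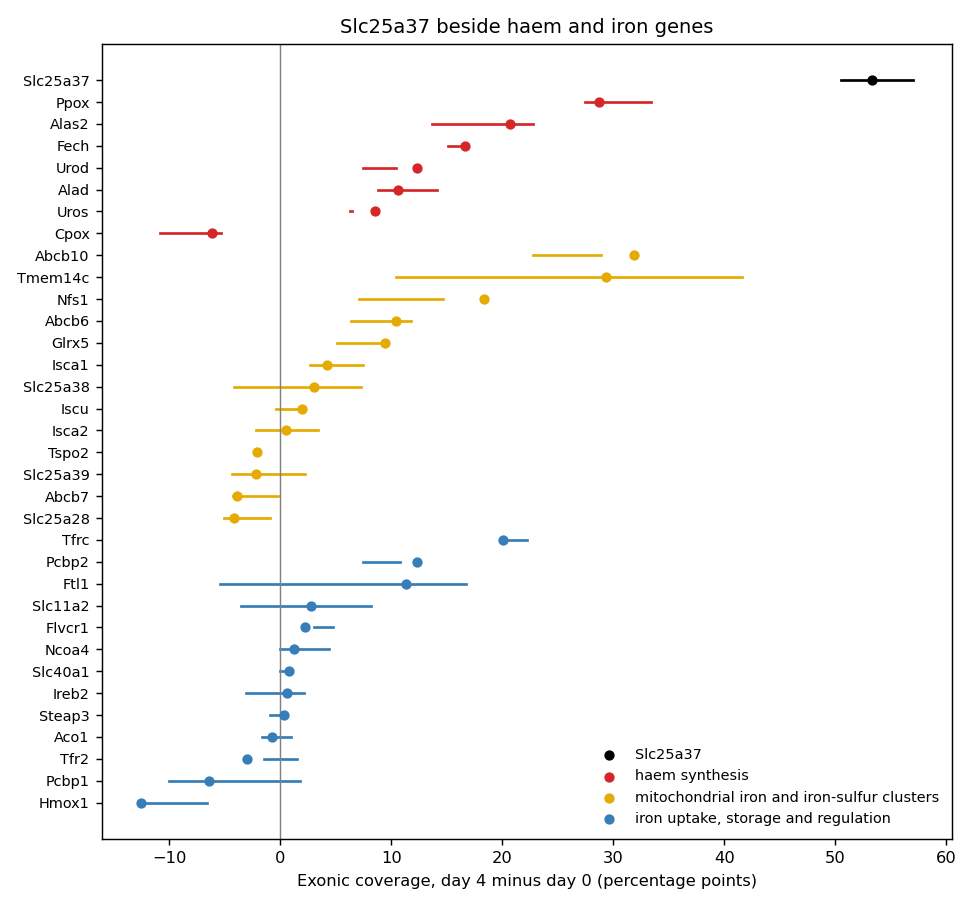
Difference in exonic coverage between day 4 and day 0, in percentage points, for Slc25a37 and haem and iron genes with an exonic PPS (1 list member is not shown). Points are the PPSs of all call sets, lines span the 4 pairs of replicates (a point can lie outside its line because it uses the calls of both replicates), and colours are the 3 lists. Slc25a37 lies at 53.3, Abcb10 at 31.8, and of the haem synthesis genes shown Cpox alone lies to the left of 0.

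The genes with the most similar pattern over the 12 call sets, by Pearson correlation of exonic coverage among 2461 candidates, were Epb41 (r = 0.973), Mxd4 (0.968), Cish (0.958), Ranbp10 (0.956) and Pkhd1l1 (0.955). The 12 values share their day lists and merged coordinates, so the correlations are descriptions. Epb41, which encodes the membrane skeleton protein 4.1R of red cells, went from 12.3% at day 0 to 17.0% and 40.3%. Mxd4, a transcriptional repressor of the MAX network, went from 0% to 10.7% and 30.4%, and Cish, an inhibitor of cytokine signalling, from 5.17% to 16.1% and 31.5%. By Euclidean distance, which also asks for a similar level, the nearest genes were Ufsp1, Irs2, Ranbp6, Ddx17 and Dennd4c, and 0 of the 5 were shared between the measures. Irs2, an adaptor of insulin signalling, stood at 19.7%, 32.6% and 63.4% over the 3 days.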

How the data were processed

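PIP-seq libraries of MEL cells were trimmed by the authors (cutadapt 1.2.1), aligned to mm10 with TopHat 2.0.10 allowing up to 10 multihits, and freed of PCR duplicates. The authors called PPSs with a modified CSAR Poisson test of footprint against structure-only coverage at a false discovery rate of 5%, and merged them per day. The deposited lists hold coordinates, strand, the calls merged and a score whose scaling is not given in the sources used here. A score has no read depth, so precision could not be computed. Here, sites were assigned by strand to GENCODE M21 genes with Python 3.11.15 and numpy 2.4.6, and coverage was computed per day, nuclease and replicate. As a check of the arithmetic, an artificial PPS was placed in 200 genes picked from 21528. The coverage step returned at least its length in 200 of 200, and the other genes were not checked. No test was run. Named genes were Slc25a37, its paralog and flanking genes, the 5 most correlated genes, and the 3 largest and 3 smallest differences of the lists; Slc25 carriers, further list members and the Euclidean neighbours were added beyond this rule. A flanking gene and a list member are not reported here. Ranks by region, carriers and sequence words were chosen after the data were seen. The members, the gene and the lists were chosen with earlier results of these data known. The replicates are biological per the study's methods.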

Additional observations from a re-analysis of the deposited data

Results flagged for a closer look

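A PPS lay beyond the annotated 3′ end of Slc25a37, outside the regions compared. Within 1000 nt downstream of the gene, day 4 had 1 PPS (chr14:69241387-69241433, score 9.98, 1 dsRNase call of replicate 1), and day 0 and day 2 had none. It rests on a single call.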

How the results depend on the processing

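Here coverage is over all transcripts of Slc25a37, and differences are in percentage points. Of 55 comparisons of a result with an alternative setting, 29 moved by less than the spread between replicates, 25 moved by more and 1 changed its sign. Exonic coverage at day 4 minus day 0 was 53.3, with 45.6 from ssRNase calls and 47.4 to 58.0 without a replicate. At day 2 minus day 0 it was 20.2, with 18.2 for scores of 10 or more, 16.1 for sites of both replicates, 18.6 from ssRNase calls, 17.5 from dsRNase calls and 14.1 to 24.96 without a replicate. For the CDS the difference of 10.97 ranged from -1.73 to 25.7 without a replicate, the negative value being that without replicate 1 of day 4. For the 3′UTR, 69.4 became 72.9 for scores of 10 or more and also for sites of both replicates, 66.5 from ssRNase calls, 73.1 from dsRNase calls, and 66.5 to 73.8 without a replicate. The intronic difference of 14.2 became 9.05 for scores of 10 or more, 8.72 for sites of both replicates, 12.03 from ssRNase calls, 8.44 from dsRNase calls, 16.1 for the single transcript with the longest CDS and 10.4 to 14.7 without a replicate. PPSs of all lengths moved none of these 5 differences by more than the spread. An equal number of top-scoring PPSs from each list removed no site of the gene and left all 5 values as they were, so it says nothing about their stability. These 5 comparisons are among the 29 counted as moving by less than the spread. Causes were not tested. No paired analysis was possible because no test was run and no replicate of one day is tied to one of another. Depth is unknown, so a position outside a PPS is not shown to be unbound.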
